A study of Mus musculus with 21 samples.

Results

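The 49 genes described here act in DNA replication and mitosis. They were chosen by symbol from a list of S phase and mitosis genes, out of 52636 genes in the deposited count table. All 49 symbols were found. They were divided by role into 24 replication genes and 25 mitotic genes, and all 49 were among the 16197 genes that passed the filter on low counts. The rule names genes by symbol and uses no measured level, but the list was drawn up with earlier results of these data known.

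In a cycling cell, E-type cyclins and E2F transcription factors start S phase, origins are licensed by Cdc6, Cdt1 and the MCM helicase, and polymerases copy the DNA from nucleotides that ribonucleotide reductase, thymidylate synthase and thymidine kinase help to supply. Mitotic genes peak later, when cyclin B with Cdk1, the Polo and Aurora kinases, the spindle checkpoint and kinesin motors divide the chromosomes. Resting fibroblasts keep both groups low, and their transcripts are widely used as a readout of how many cells in a culture are dividing. Replication genes are commonly controlled through E2F sites in their promoters, and mitotic genes through the CHR element, often beside CCAAT boxes, which the MuvB complexes and the factor NF-Y bind.

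Bulk stranded RNA-seq of total RNA was made from mouse lung fibroblasts that carry Ly6C and Sca-1 on their surface and were stimulated in culture. The 21 libraries form 7 groups of 3. These were TGFb1 + CHIR, CHIR alone, TGFb1 + IL1b, TGFb1 + TNF, TGFb1 + DMSO, TGFb1 alone and DMSO alone. TGFb1 is a cytokine that drives fibroblasts towards matrix production, IL1b and TNF are inflammatory cytokines, and DMSO is a solvent. CHIR is named in the labels by that short name alone, which is commonly used for an inhibitor of the kinase GSK3. The sources used here give no doses, times, mouse strain or age, and do not say whether the 3 libraries of a group came from different cultures, so the p-values measure the spread between these libraries, which may be technical.

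Library totals ran from 19796379 to 29276382 counts. Levels are given as CPM, counts scaled to 1e6 per library after TMM normalization, and a gene passed the test when edgeR's quasi-likelihood test gave an adjusted p below 0.05 over all genes tested. The 11 fibroblast markers summed to group means of 45801 to 91781 CPM. None was at 0 in all 21 libraries, but Lum was at 0 in 1 library, with a lowest group mean of 0.0243 CPM. The 2 surface markers differed widely between groups, and both were highest in DMSO. Mean Ly6a, which encodes Sca-1, was 141.7 CPM in DMSO and 7.83 CPM in its lowest group. Mean Ly6c1 was 49.8 CPM in DMSO and only 0.703 CPM in its lowest group. Of the markers of other cells, 5 of 12 immune, 3 of 10 epithelial and 1 of 8 endothelial genes had 0 counts in all 21 libraries, among them Ptprc, Cd3e, Adgre1, Nkx2-1 and Cldn5. The summed group means of these markers lay between 2.29 and 6.403 CPM for immune, 0.352 and 1.56 CPM for epithelial and 5.53 and 23.9 CPM for endothelial genes, while mural and smooth muscle markers reached 61.6 to 289.8 CPM and mesothelial markers 9.41 to 31.7 CPM. The share of counts from mitochondrial genes was highest in CHIR, at 1.04 ± 0.114%, against 0.572 ± 0.0166% in DMSO (mean ± SD, n = 3 each). Its part in the results below was not tested.

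Promoter sequences show how the replication and mitotic genes differ before any level is considered. RefSeq promoters (GRCm38.p6, 250 bases before to 50 after the start) were found for 38 of the 49 genes, 19 replication and 19 mitotic. 3 kinds of letters were searched on both strands. The CHR letters were TTTGAA, the CCAAT letters were CCAAT, and the E2F letters were TTTCCCGC, TTTCGCGC, TTTGCCGC or TTTGGCGC. Each kind was searched separately, so overlapping words, such as E2F words on opposite strands, were each counted. The CHR letters stood in 14 of 19 mitotic promoters (73.7%) and 2 of 19 replication promoters (10.5%), beside 16.5% of 17492 promoters of protein-coding genes. The E2F letters stood in 7 of 19 replication promoters (36.8%) and 1 of 19 mitotic promoters (5.26%), beside 2.94% of all. At least 1 CCAAT was found in 17 mitotic promoters (89.5%), 12 replication promoters (63.2%) and 39.2% of all. A match describes these letters only and is not evidence that a factor binds.

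Promoters of 4 mitotic genes are shown first, since they hold the CHR and CCAAT letters together, each as the 160 bases before the start, read 5′ to 3′ on the gene's strand with the CHR, CCAAT and E2F letters of either strand in capitals.
Mki67 (chr7:135716380-135716539, minus strand): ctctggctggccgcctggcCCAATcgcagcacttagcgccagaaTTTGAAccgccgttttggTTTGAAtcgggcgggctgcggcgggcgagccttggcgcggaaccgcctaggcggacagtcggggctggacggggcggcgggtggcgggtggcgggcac
Cdc20 (chr4:118437344-118437503, minus strand): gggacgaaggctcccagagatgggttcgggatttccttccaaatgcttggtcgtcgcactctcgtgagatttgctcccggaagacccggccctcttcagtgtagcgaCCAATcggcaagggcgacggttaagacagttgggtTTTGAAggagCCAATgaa
Top2a (chr11:99024190-99024349, minus strand): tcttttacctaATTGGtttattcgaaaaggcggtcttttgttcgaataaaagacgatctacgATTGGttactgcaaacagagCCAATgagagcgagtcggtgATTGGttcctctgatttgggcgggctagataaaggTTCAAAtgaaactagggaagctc
Cdk1 (chr10:69352913-69353072, minus strand): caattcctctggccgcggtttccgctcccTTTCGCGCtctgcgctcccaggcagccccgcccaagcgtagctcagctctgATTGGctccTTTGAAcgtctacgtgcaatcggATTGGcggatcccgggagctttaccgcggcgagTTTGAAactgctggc

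Mki67 encodes the proliferation marker Ki-67, Cdc20 an activator of the anaphase-promoting complex, Top2a the topoisomerase that untangles sister chromatids and Cdk1 the kinase that drives mitosis. All 4 stretches hold TTTGAA or its reverse complement and CCAAT or ATTGG, and Cdk1 also holds an E2F word. For comparison, 2 helicase genes with E2F words and the cyclin E gene Ccne1, in which the search found none of the letters, read as follows.
Mcm5 (chr8:75109349-75109508, plus strand): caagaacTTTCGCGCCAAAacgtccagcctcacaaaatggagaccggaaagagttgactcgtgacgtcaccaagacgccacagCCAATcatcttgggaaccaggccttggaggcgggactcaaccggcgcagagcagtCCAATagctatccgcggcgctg
Mcm6 (chr1:128359706-128359865, minus strand): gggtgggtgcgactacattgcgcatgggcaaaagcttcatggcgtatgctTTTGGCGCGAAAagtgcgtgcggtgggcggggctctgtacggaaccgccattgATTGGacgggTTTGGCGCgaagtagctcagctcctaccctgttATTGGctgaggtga
Ccne1 (chr7:38107491-38107650, minus strand): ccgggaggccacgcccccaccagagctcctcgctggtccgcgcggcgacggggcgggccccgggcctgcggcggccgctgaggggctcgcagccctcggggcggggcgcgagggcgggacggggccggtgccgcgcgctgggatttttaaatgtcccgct

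Mcm5 and Mcm6 encode subunits of the MCM helicase, and in both an E2F word on one strand runs into an E2F word on the other. Ccne1 encodes cyclin E1, the partner of Cdk2 at the start of S phase, and no match in its window says only that these exact letters are not there. The genes themselves (GRCm38, GENCODE M21) lie at chr7:135689784-135716361 for Mki67, chr4:118432901-118437352 for Cdc20, chr11:98992943-99024189 for Top2a, chr10:69335146-69352938 for Cdk1, chr8:75109569-75128439 for Mcm5, chr1:128331590-128359664 for Mcm6 and chr7:38097984-38107534 for Ccne1, and their counts are over whole genes. The starts in RefSeq and GENCODE are not the same base in all of these genes.

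Across the 7 groups, the summed level of all 49 genes was 2279 ± 85.2 CPM in TGFb1 + CHIR, 624 ± 14.8 in CHIR, 3834 ± 94.4 in TGFb1 + IL1b, 4900.2 ± 63.3 in TGFb1 + TNF, 3800.0 ± 70.2 in TGFb1 + DMSO, 4110.4 ± 159 in TGFb1 and 2064 ± 163 in DMSO (mean ± SD, n = 3 each). CHIR held the lowest mean of every one of the 49 genes. In 48 of them the CHIR level differed from that of the next group, and Pola1 was the exception. That next group was DMSO or TGFb1 + CHIR, and 44.8% of all genes tested differed between CHIR and DMSO and 66.2% between TGFb1 + CHIR and CHIR. The highest mean lay in TGFb1 + TNF for 37 genes, 24 of them mitotic, in TGFb1 for 9, in TGFb1 + IL1b for Gins2 and Tyms, and in TGFb1 + DMSO for Ccne1. In bulk RNA, fewer cycling cells and less RNA per cycling cell cannot be told apart.

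Mitotic genes spanned the wider range. The highest group mean divided by the lowest was 18.3 for the median mitotic gene, with a range of 5.996 for Foxm1 to 33.5 for Ccnb1. For the median replication gene it was 6.29, with a range of 2.07 for Mcm4 to 24.3 for Rrm2. The mitotic sum divided by the replication sum was 1.75 ± 0.0429 in TGFb1 + CHIR, 0.538 ± 0.0365 in CHIR, 1.96 ± 0.0539 in TGFb1 + IL1b, 2.09 ± 0.0229 in TGFb1 + TNF, 1.88 ± 0.0679 in TGFb1 + DMSO, 1.87 ± 0.0545 in TGFb1 and 1.33 ± 0.0360 in DMSO. In these sums the replication genes outweighed the mitotic genes in CHIR, and the mitotic genes outweighed them in the other groups. The sums are not divided by exon length, so which side is larger depends on gene length and on the genes listed. The first principal component of the 49 genes held 96.1% of their variance over the libraries and the second 1.55%.

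**Figure D1:**
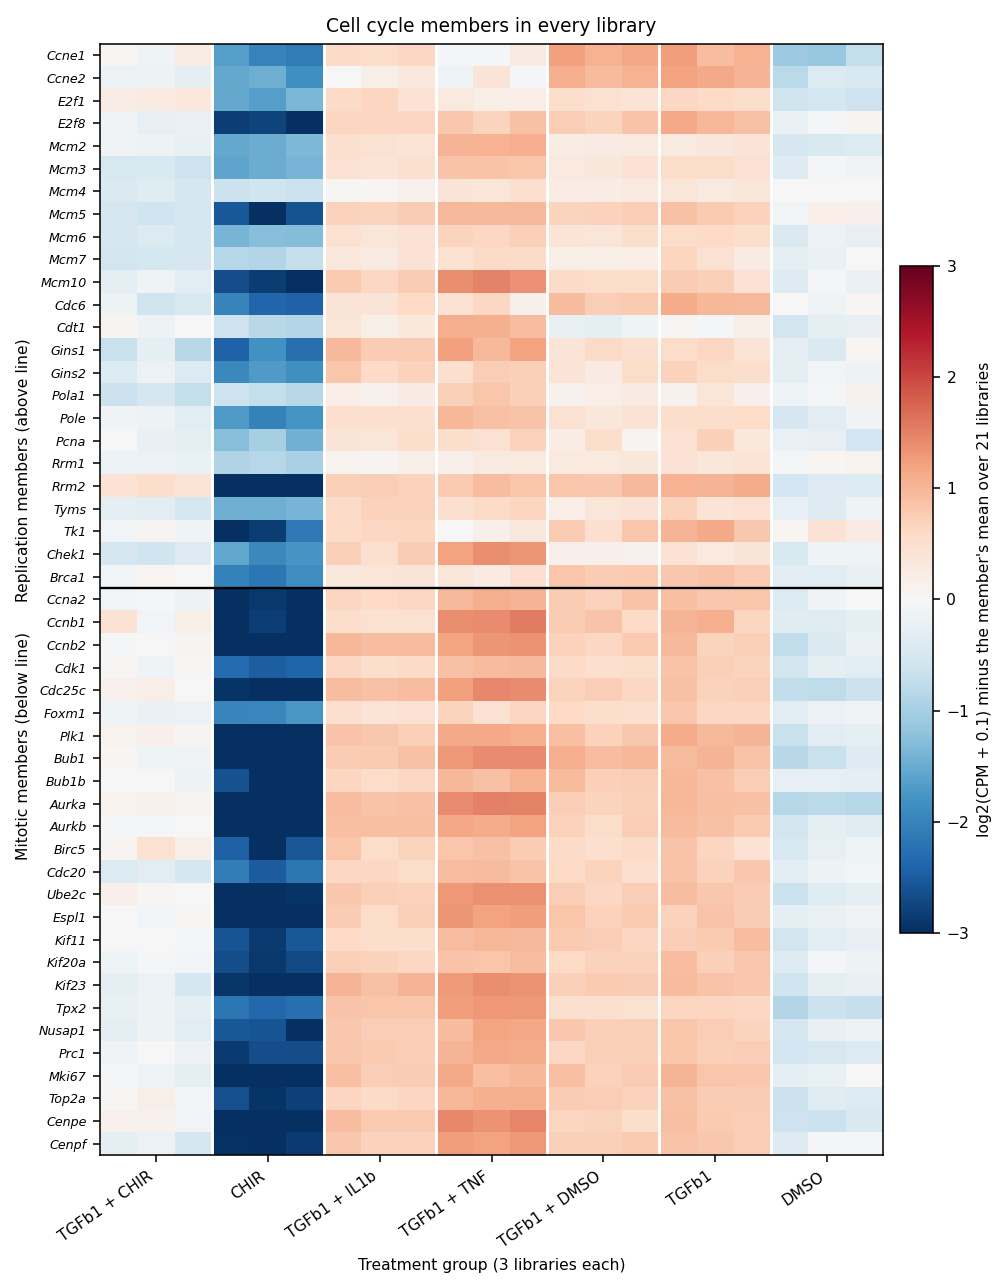
Level of each of the 49 genes (rows, replication genes above the line and mitotic genes below) in each of the 21 libraries (columns, 3 per treatment group), as log2(CPM + 0.1) less the gene's mean over all libraries; the colour scale stops at 3 in either direction. The CHIR group mean is the lowest for every gene, though for Pola1 the CHIR libraries overlap those of TGFb1 + CHIR. The mitotic rows are darker in CHIR than most replication rows.

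Per kilobase of exon, the highest mean levels in DMSO were those of Mcm4 (21.7 CPM per kilobase), Mki67 (20.96) and Mcm6 (20.7). The lowest were those of Cdc6 (1.12), Ccnb1 (1.13) and Cdc25c (1.30). Exon length here counts all annotated exon bases of a gene, which can exceed the length of a transcript. For Ccnb1 it was 4217 bases, while its longest coding transcript had 2489. The order of genes on this scale therefore depends on the annotation. Levels of 4 genes are uncertain, since near-identical copies exist to which their reads could have been assigned or with which they could have been lost. For Pcna, the sliding clamp of the polymerases, the copy Pcna-ps2 held 4154 counts over all libraries and Pcna itself 3947. Ccnb1 has the copies Gm12856 with 102 counts and Gm8416 with 113 beside 4652 of its own, Cdc6 has Gm9430 with 95 beside 3979, and Mcm7 is close to Gm5487. In 14 genes an exon overlaps an exon on the opposite strand, most of all in Gins2 (67.3% of its exon bases, under Gse1) and Kif20a (29.3%, under Cdc23), and the sources used here do not name the strand setting of the counting.

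**Figure D2:**
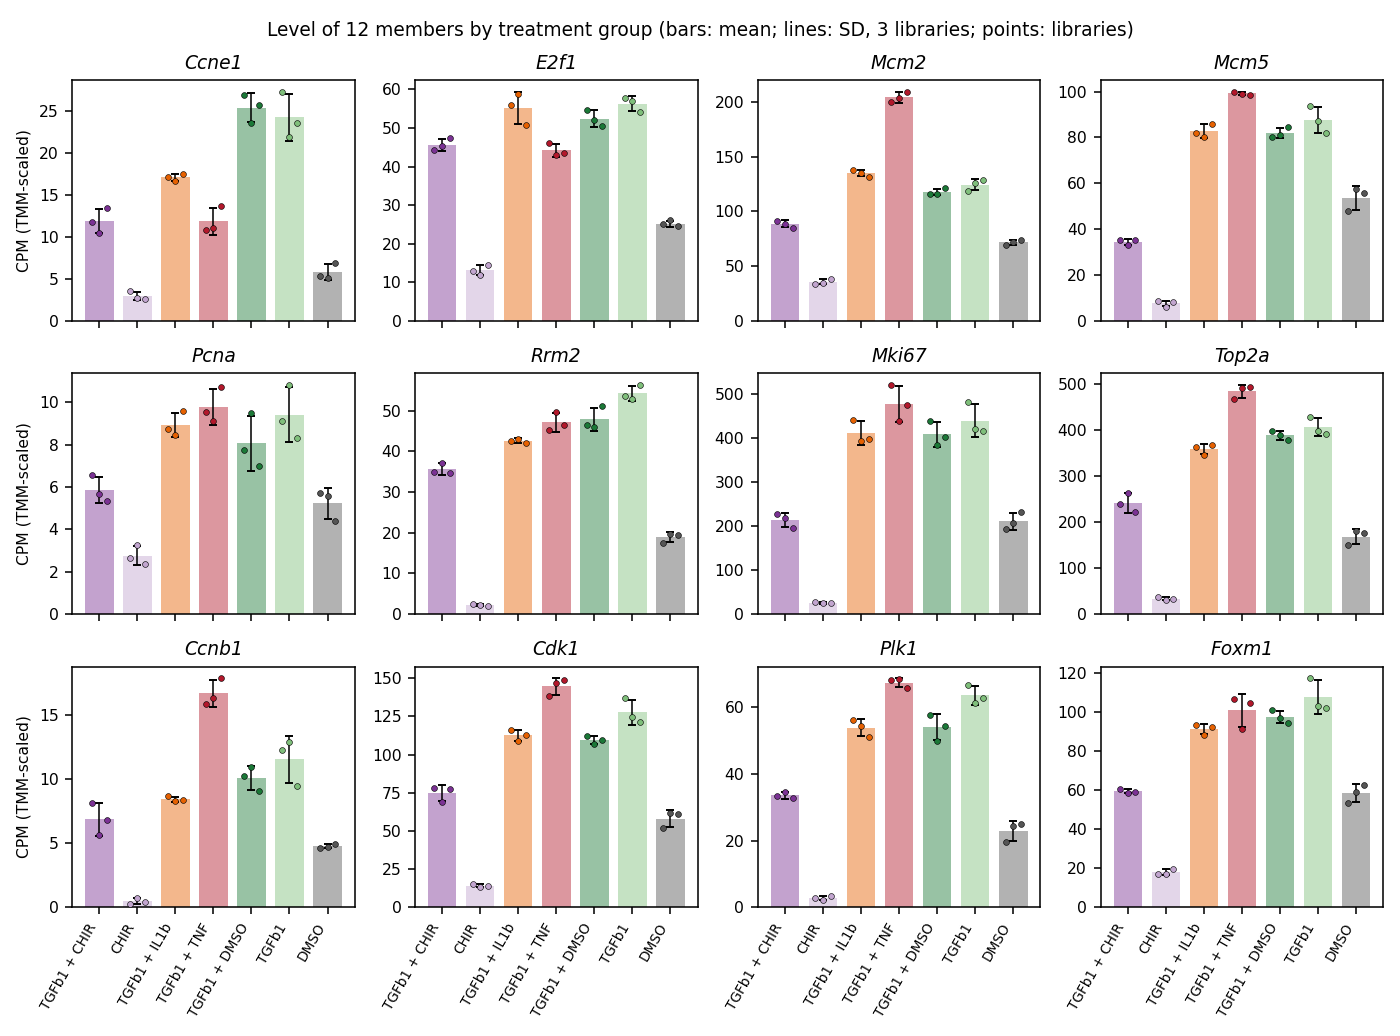
CPM of the 12 genes described library by library (bars, group mean; lines, SD; points, the 3 libraries) in the 7 treatment groups, on axes that start at 0. CHIR is the lowest bar in each panel and TGFb1 + TNF the highest in 8 of the 12.

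TGFb1 raised nearly the whole list. With TGFb1 + DMSO set against DMSO, 48 of 49 genes rose, none fell and Cdt1 did not pass, while 30.7% of all genes tested rose and 31.3% fell. The median log2 fold change was 0.91 over the 49 genes, 1.09 over the 25 mitotic genes and 0.67 over the 24 replication genes, beside -0.02 over all genes tested. With TGFb1 alone in place of TGFb1 + DMSO all 49 rose, beside 63.5% of all genes tested that differed. Summed mural and smooth muscle markers were at 159 ± 5.25 CPM in TGFb1 + DMSO and 78.0 ± 2.73 CPM in DMSO, and mesothelial markers at 24.7 ± 2.36 CPM in TGFb1 + DMSO and 14.4 ± 1.97 CPM in DMSO (mean ± SD, n = 3 each). The part of these markers in the results was not tested, here or in the comparisons that follow.

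The highest rise was that of Ccne1. It had 26.9, 23.5 and 25.6 CPM in the TGFb1 + DMSO libraries, against 5.34, 5.17 and 6.93 in the DMSO libraries, a log2 fold change of 2.13 ± 0.12 (SE; adjusted p = 1.30e-21). The groups lay far apart, the lowest TGFb1 + DMSO library being above every DMSO library. Ccne2, its paralogue, averaged 34.8 ± 1.66 CPM in TGFb1 + DMSO and 11.6 ± 1.66 CPM in DMSO (SD, n = 3 each), with a log2 fold change of 1.58 ± 0.11. E2f1, an activator of S phase genes, had 54.7, 52.1 and 50.5 CPM with TGFb1 + DMSO, against 25.1, 26.1 and 24.6 with DMSO, and rose by 1.05 ± 0.07. All 4 genes of the group of E cyclins and E2F factors rose, with a median of 1.32 on the log2 scale, including E2f8, a repressor of the E2F family, at 0.81.

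The log2 fold changes of the replication machinery were smaller, and the difference between these groups of genes was not tested. Of the 11 licensing and helicase genes 10 rose, with a median log2 fold change of 0.61. Mcm2 had 116, 116 and 121 CPM in TGFb1 + DMSO, against 69.4, 71.9 and 74.3 in DMSO. Mcm5 had 80.2, 81.0 and 84.4 CPM in TGFb1 + DMSO, against 47.8, 57.7 and 55.7 in DMSO. In both the groups did not overlap, with log2 fold changes of 0.71 ± 0.05 and 0.61 ± 0.06. The smallest rises were those of Pola1, a subunit of the priming polymerase (0.19 ± 0.07, not passing without DMSO replicate 1), and Mcm4 (0.24 ± 0.05), and Cdt1, which loads the helicase, stood at 0.15 ± 0.09 (SE; adjusted p = 0.147). Among the nucleotide genes Rrm2, the regulated subunit of ribonucleotide reductase, had 46.5, 45.9 and 51.1 CPM in TGFb1 + DMSO, against 17.5, 19.7 and 19.4 in DMSO, a log2 fold change of 1.34 ± 0.07, while its partner Rrm1 stood at 0.26 ± 0.04. Pcna, whose reads may be shared with its copy, had 7.72, 9.51 and 6.99 CPM in TGFb1 + DMSO, against 5.72, 5.57 and 4.38 in DMSO, and its log2 fold change was 0.62 ± 0.15.

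All 25 mitotic genes rose with TGFb1 + DMSO. Mki67 had 438, 384 and 402 CPM, against 193, 207 and 232 in DMSO, and Top2a had 397, 389.5 and 378 CPM, against 149, 180.0 and 175 in DMSO. Plk1, the Polo kinase, had 57.7, 49.9 and 54.4 CPM, against 19.5, 24.3 and 25.1 in DMSO. In each of the 3 every TGFb1 + DMSO library was above every DMSO library, and the log2 fold changes were 0.95 ± 0.09, 1.21 ± 0.07 and 1.24 ± 0.08. The highest was that of Bub1, a kinase of the spindle checkpoint, at 1.63 ± 0.08 (SE; adjusted p = 4.38e-23), and the smallest that of Foxm1, a transcription factor of mitotic genes, at 0.74 ± 0.06 (SE; adjusted p = 3.30e-15). Medians by role ran from 0.96 for the genes of the anaphase-promoting complex and separase to 1.15 for the kinases, checkpoint and passenger genes.

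CHIR alone lowered the list as a whole. With CHIR set against DMSO, all 49 genes fell, while 22.7% of all genes tested fell and 22.1% rose. The median log2 fold change was -2.31 over the 49 genes, -2.59 over the mitotic genes and -1.26 over the replication genes, beside -0.01 over all genes tested. All 49 also fell when any 1 of the 6 CHIR or DMSO libraries was left out and under the other settings tried. Summed mural and smooth muscle markers were at 61.6 ± 1.74 CPM in CHIR and 78.0 ± 2.73 CPM in DMSO, and mesothelial markers at 9.41 ± 0.680 CPM in CHIR and 14.4 ± 1.97 CPM in DMSO (mean ± SD, n = 3 each).

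Mki67 had 28.0, 24.4 and 25.8 CPM in the CHIR libraries, against 193, 207 and 232 in the DMSO libraries, a log2 fold change of -3.01 ± 0.10 (SE; adjusted p = 1.57e-13). Ccnb1, which encodes cyclin B1, had 0.298, 0.761 and 0.438 CPM in CHIR, against 4.66, 4.67 and 4.95 in DMSO, the lowest log2 fold change of the list at -3.23 ± 0.23 (SE; adjusted p = 5.92e-17). It rested on 8, 20 and 9 counts in the CHIR libraries. Plk1 had 2.91, 2.24 and 3.31 CPM in CHIR, against 19.5, 24.3 and 25.1 in DMSO. In all 3 genes the CHIR libraries lay below the lowest DMSO library. Top2a had 37.3, 30.2 and 33.1 CPM in CHIR, against 149, 180.0 and 175 in DMSO, a log2 fold change of -2.32 ± 0.08. Cdk1 had 15.0, 13.6 and 14.3 CPM in CHIR, against 51.7, 61.8 and 60.8 in DMSO, and fell by 2.02 on the log2 scale. Cdc20 had 5.92, 4.45 and 5.55 CPM in CHIR, against 20.1, 23.1 and 24.1 in DMSO, a log2 fold change of -2.08 ± 0.10. Espl1, the separase that releases sister chromatids, fell to 3.34 ± 0.815 CPM in CHIR, against 28.1 ± 1.70 CPM in DMSO (SD, n = 3 each; log2 fold change -3.08 ± 0.11). The smallest changes among mitotic genes were those of Tpx2, which targets Aurora A to the spindle (-1.54 ± 0.05), and Foxm1 (-1.71 ± 0.07). Foxm1 had 16.9, 17.2 and 19.8 CPM in CHIR, against 53.5, 59.3 and 62.5 in DMSO.

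The replication genes divided more widely. Rrm2 had 2.42, 2.32 and 1.95 CPM in CHIR, against 17.5, 19.7 and 19.4 in DMSO, a log2 fold change of -3.06 ± 0.11 (SE; adjusted p = 1.51e-29). Tk1, thymidine kinase, and E2f8 followed at -3.01 ± 0.19 and -2.92 ± 0.12. The 6 subunits of the MCM helicase covered a wide range. Mcm5 had 8.64, 6.27 and 8.23 CPM in CHIR, against 47.8, 57.7 and 55.7 in DMSO, a log2 fold change of -2.80 ± 0.08, while Mcm4 and Mcm7 stood at -0.63 ± 0.05 and -0.66 ± 0.09. Mcm2, Mcm6 and Mcm3 lay between them at -1.01 ± 0.05, -1.05 ± 0.06 and -1.33 ± 0.07. Differences between these genes were not tested. The E cyclins and E2f1 were also among the smaller changes, with Ccne1 at 3.54, 2.78 and 2.58 CPM in CHIR, against 5.34, 5.17 and 6.93 in DMSO, and E2f1 at 13.0, 12.02 and 14.6 CPM in CHIR, against 25.1, 26.1 and 24.6 in DMSO. Mcm2 had 33.9, 35.1 and 38.6 CPM in CHIR, against 69.4, 71.9 and 74.3 in DMSO, again without overlap. Pcna had 2.64, 3.27 and 2.39 CPM in CHIR, against 5.72, 5.57 and 4.38 in DMSO, and its copy Pcna-ps2 averaged 3.66 ± 0.224 CPM in CHIR and 5.32 ± 0.718 CPM in DMSO (SD, n = 3 each). The smallest change was that of Cdt1, with 16.6, 14.3 and 13.9 CPM in CHIR, against 17.5, 21.2 and 21.4 in DMSO, a log2 fold change of -0.42 ± 0.09 (SE; adjusted p = 0.000151).

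**Figure D3:**
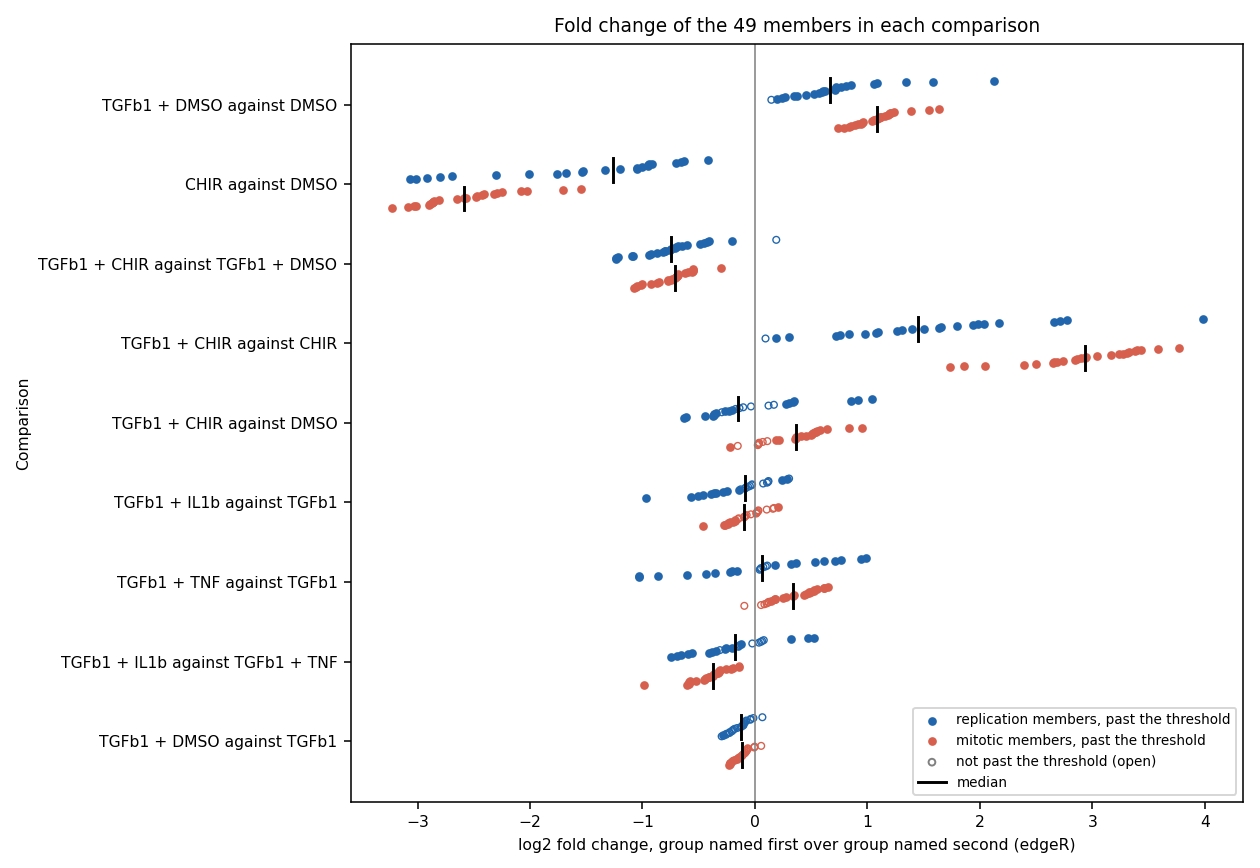
Log2 fold change of each of the 49 genes in 9 comparisons (points: replication genes above, mitotic genes below in each row; filled past the threshold, open not past it; bars: medians). The group named first is set over the group named second, and the mitotic median is -2.59 for CHIR against DMSO and -0.71 for TGFb1 + CHIR against TGFb1 + DMSO.

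Added to TGFb1, CHIR again lowered nearly the whole list. With TGFb1 + CHIR set against TGFb1 + DMSO, 48 of 49 genes fell, none rose and Cdt1 did not pass, at 0.19 ± 0.09 (SE; adjusted p = 0.077), while 22.5% of all genes tested fell. Without TGFb1 + CHIR replicate 2, 1 gene rose. The median log2 fold change was -0.74 over the 49 genes, -0.71 over the mitotic genes and -0.75 over the replication genes, beside 0 over all genes tested. Mki67 had 227, 219 and 197 CPM in TGFb1 + CHIR, against 438, 384 and 402 in TGFb1 + DMSO. Ccnb1 had 8.15, 5.63 and 6.77 CPM in TGFb1 + CHIR, against 10.2, 11.0 and 9.07 in TGFb1 + DMSO. The groups did not overlap in either gene, and the log2 fold changes were -0.93 ± 0.09 and -0.55 ± 0.14. The largest falls were those of Mcm5 (-1.24 ± 0.07), Ccne2 (-1.23 ± 0.11) and Cdc6, the licensing factor that brings in the helicase (-1.22 ± 0.15), and the smallest were those of E2f1 (-0.20 ± 0.07) and Birc5, the survivin of the chromosomal passenger complex (-0.31 ± 0.11). The call of E2f1 was lost without TGFb1 + CHIR replicate 1 or TGFb1 + DMSO replicate 1, and that of Birc5 without TGFb1 + CHIR replicate 1 or 3. Summed mural and smooth muscle markers were at 74.9 ± 2.73 CPM in TGFb1 + CHIR and 159 ± 5.25 CPM in TGFb1 + DMSO, and mesothelial markers at 17.4 ± 0.764 CPM in TGFb1 + CHIR and 24.7 ± 2.36 CPM in TGFb1 + DMSO (mean ± SD, n = 3 each).

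The difference between the 2 CHIR effects was tested directly, as the log2 change with CHIR in TGFb1-treated cells less that in cells without TGFb1. It was positive and passed the test in 42 of 49 genes, which was a smaller fall with TGFb1 in 41 of them, Cdt1 having no fall with TGFb1, and was negative and passed in none, beside 21% and 20.3% of all genes tested. All 25 mitotic genes passed, with a median of 1.83 and a range of 0.85 for Tpx2 to 2.68 for Ccnb1. Of the replication genes 17 of 24 passed, with a median of 0.67. The largest differences were those of Ccnb1, at 2.68 ± 0.29 (SE; adjusted p = 3.02e-11), Rrm2, at 2.64 ± 0.13 (SE; adjusted p = 3.71e-23), and Plk1, at 2.35 ± 0.14 (SE; adjusted p = 3.32e-20). With TGFb1 alone in place of TGFb1 + DMSO, 1 gene had a negative difference that passed.

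The 7 genes that did not pass were Ccne1 (-0.14 ± 0.19), Ccne2 (-0.18 ± 0.17), Mcm4 (-0.05 ± 0.07), Mcm6 (0.12 ± 0.08), Mcm7 (-0.05 ± 0.12), Pola1 (-0.10 ± 0.10) and Pcna (0.46 ± 0.23). Their standard errors ran from 0.07 to 0.23 on the log2 scale. Ccne2 for example fell by 1.23 with TGFb1 and by 1.05 without it, having 15.0, 15.3 and 14.0 CPM in TGFb1 + CHIR, against 36.3, 33.0 and 34.97 in TGFb1 + DMSO, and 5.85, 6.12 and 4.72 CPM in CHIR, against 9.73, 12.8 and 12.4 in DMSO. The 2 contrasts behind the interaction share no library, and across the 49 genes their fold changes had a Pearson correlation of 0.27 and a Spearman correlation of 0.18, a description over genes that share libraries and are not independent.

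**Figure D4:**
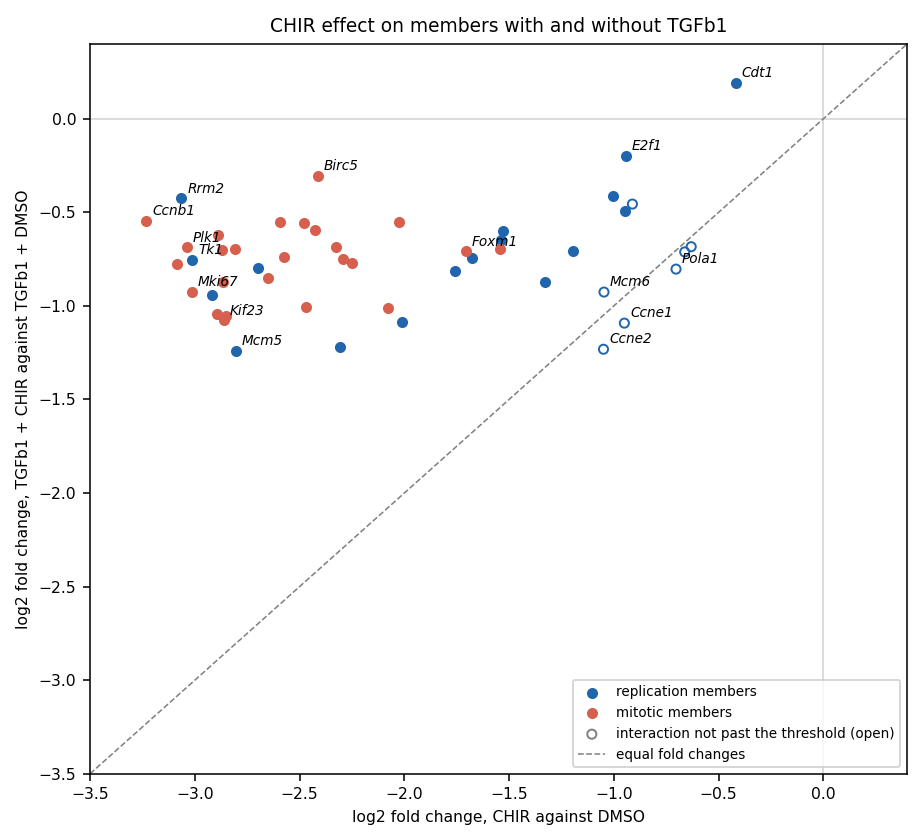
Log2 fold change of each of the 49 genes for TGFb1 + CHIR against TGFb1 + DMSO (vertical axis) and for CHIR against DMSO (horizontal axis); the dashed line marks equal changes, and open points did not pass the interaction test. All 25 mitotic genes lie above the line. The 7 open points are all replication genes, and all of them except Pcna lie close to the line.

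Read from the side of TGFb1, the same 4 groups show a larger rise in the presence of CHIR for the 42 genes that passed the interaction. With TGFb1 + CHIR set against CHIR, 48 of 49 genes rose and Pola1 did not pass, at 0.09 ± 0.07 (SE; adjusted p = 0.255), while 33.8% of all genes tested rose. The median log2 fold change was 2.50, against 0.91 for TGFb1 + DMSO over DMSO. Rrm2 had 35.02, 37.2 and 34.6 CPM in TGFb1 + CHIR, against 2.42, 2.32 and 1.95 in CHIR, a log2 fold change of 3.98 ± 0.10, the highest of the list. Plk1 had 33.3, 34.6 and 32.7 CPM in TGFb1 + CHIR, against 2.91, 2.24 and 3.31 in CHIR, a log2 fold change of 3.59 ± 0.11. In both genes every TGFb1 + CHIR library was above every CHIR library.

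In TGFb1 + CHIR the genes lay on either side of their level in DMSO. With TGFb1 + CHIR set against DMSO, 24 genes were higher, 11 lower and 14 did not pass, beside 31.1% higher and 32% lower among all genes tested. Of the mitotic genes 17 were higher and 1, Cdc20, was lower (log2 fold change -0.23 ± 0.08), a call lost without DMSO replicate 2 or 3 or TGFb1 + CHIR replicate 3. Of the replication genes 7 were higher and 10 lower. Without DMSO replicate 3 the genes that were lower numbered 7 in all.

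Among the 11 licensing and helicase genes 7 were lower in TGFb1 + CHIR than in DMSO and 2 were higher. Mcm5 had 35.5, 33.1 and 35.3 CPM in TGFb1 + CHIR, against 47.8, 57.7 and 55.7 in DMSO, a log2 fold change of -0.63 ± 0.07 (SE; adjusted p = 2.11e-11). Pola1 and Mcm4 followed at -0.61 ± 0.07 and -0.44 ± 0.05. In the other direction Ccne1 had 11.8, 10.5 and 13.4 CPM in TGFb1 + CHIR, against 5.34, 5.17 and 6.93 in DMSO, a log2 fold change of 1.04 ± 0.13 (SE; adjusted p = 6.69e-10). Aurka, the Aurora A kinase, and Rrm2 were higher by 0.95 ± 0.06 and 0.92 ± 0.07. For Mki67, with 227, 219 and 197 CPM in TGFb1 + CHIR and 193, 207 and 232 in DMSO, and for Foxm1, with 60.9, 58.7 and 59.3 CPM in TGFb1 + CHIR and 53.5, 59.3 and 62.5 in DMSO, the groups overlapped, and the log2 differences of 0.03 ± 0.09 and 0.03 ± 0.06 did not pass.

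With TNF added to TGFb1 most mitotic genes rose, while the balance of the replication genes depended on the TGFb1 control. With TGFb1 + TNF set against TGFb1, 27 genes rose, 9 fell and 13 did not pass, beside 27.7% and 28.8% of all genes tested. Of the mitotic genes 18 of 25 rose and none fell, with a median log2 fold change of 0.34. The replication genes were divided, with 9 rising and 9 falling and a median of 0.06. With TGFb1 + DMSO in place of TGFb1 the even split was lost: 14 replication genes rose and 6 fell, with a median of 0.24. Of the 25 mitotic genes 24 rose and none fell with that control, with a median of 0.40. With that control 4505 of the 16197 genes tested rose and 4728 fell. The median over all genes tested was -0.0040 against TGFb1.

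The genes that start S phase fell. Ccne1 had 10.9, 11.0 and 13.7 CPM in TGFb1 + TNF, against 27.2, 21.8 and 23.5 in TGFb1, and Ccne2 had 15.5, 22.4 and 16.7 CPM in TGFb1 + TNF, against 39.5, 37.4 and 34.7 in TGFb1. Neither pair of groups overlapped, and the log2 fold changes were -1.03 ± 0.11 (SE; adjusted p = 2.70e-11) and -1.03 ± 0.11 (SE; adjusted p = 1.40e-11). E2f1 had 46.0, 43.0 and 43.5 CPM in TGFb1 + TNF, against 57.8, 57.0 and 54.1 in TGFb1, a log2 fold change of -0.35 ± 0.07. E2f8 fell by 0.22. The nucleotide genes Tk1, Rrm2 and Rrm1 fell, by 0.86, 0.20 and 0.16, and so did Cdc6 (-0.61 ± 0.14) and Brca1, a repair gene (-0.44 ± 0.08). The calls of E2f8, Rrm2 and Rrm1 were lost with TGFb1 + DMSO in place of TGFb1 and with library totals alone as the scaling, and that of E2f8 also without TGFb1 replicate 1 or TGFb1 + TNF replicate 2.

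Of the licensing and helicase genes 6 of 11 rose and 1 fell, and of the 3 genes of polymerases and the clamp 2 rose. Cdt1 had 54.5, 53.8 and 48.99 CPM in TGFb1 + TNF, against 26.4, 24.4 and 28.7 in TGFb1, a log2 fold change of 0.99 ± 0.08 (SE; adjusted p = 5.10e-15). Mcm2 had 199.8, 203 and 209 CPM in TGFb1 + TNF, against 119, 126 and 129 in TGFb1, a log2 fold change of 0.71 ± 0.05 (SE; adjusted p = 1.21e-18). All TGFb1 + TNF libraries stood clear of the TGFb1 libraries in both. Chek1, the checkpoint kinase that guards replication forks, rose by 0.94 ± 0.10, Mcm10, which activates the helicase, by 0.77 ± 0.08 and Pola1 by 0.54 ± 0.06. Mcm5 rose by 0.18, a call lost without TGFb1 replicate 3, and Mcm4, Mcm6 and Mcm7 did not pass, at 0.10 ± 0.05, 0.11 ± 0.05 and 0.07 ± 0.08.

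Among mitotic genes Tpx2, Cenpe, a kinetochore motor, and Cdc25c, the phosphatase that activates Cdk1, rose most, by 0.65 ± 0.05, 0.62 ± 0.06 and 0.61 ± 0.09 on the log2 scale. Ccnb1 had 15.9, 16.3 and 17.9 CPM in TGFb1 + TNF, against 12.3, 12.9 and 9.43 in TGFb1, a log2 fold change of 0.52 ± 0.13, and every TGFb1 + TNF library was above the TGFb1 libraries. Top2a had 468, 491 and 492 CPM in TGFb1 + TNF, against 428, 398 and 392 in TGFb1, a log2 fold change of 0.25 ± 0.07. The proliferation marker Mki67 did not pass: it had 521, 439 and 474 CPM in TGFb1 + TNF and 482, 419.7 and 415 in TGFb1, the groups overlapped, and the log2 difference was 0.12 ± 0.09 (SE; adjusted p = 0.248). Plk1 and Foxm1 did not pass either, at 0.08 ± 0.07 and -0.09 ± 0.06. With TGFb1 + DMSO as the control 24 of 25 mitotic genes rose, so calls among Mki67, Plk1 and Foxm1 depended on the control. The mural and smooth muscle markers, summed, were at 289.8 ± 5.59 CPM in TGFb1 + TNF and 177 ± 10.1 CPM in TGFb1, of which Cspg4 made 273 CPM with TNF, and mesothelial markers were at 16.8 ± 1.11 CPM in TGFb1 + TNF and 30.1 ± 2.16 CPM in TGFb1.

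IL1b added to TGFb1 changed the list less. With TGFb1 + IL1b set against TGFb1, 3 genes rose, 19 fell and 27 did not pass, beside 17.2% and 17.4% of all genes tested, and the median log2 fold change was -0.09 over the 49 genes and 0.0024 over all genes tested. Against TGFb1 + DMSO in place of TGFb1 the counts were 13 higher and 11 lower, beside 39.3% of all genes tested that differed, so the direction of the list as a whole depended on the TGFb1 control. The genes that rose were Chek1 (0.28 ± 0.10), Cdt1 (0.24 ± 0.08) and Tpx2 (0.21 ± 0.05), and the calls of Chek1 and Cdt1 were lost when TGFb1 replicate 2 or TGFb1 + IL1b replicate 1 or 3 was left out. Summed mural and smooth muscle markers were at 191 ± 10.8 CPM in TGFb1 + IL1b and 177 ± 10.1 CPM in TGFb1, and mesothelial markers at 31.7 ± 1.41 CPM in TGFb1 + IL1b and 30.1 ± 2.16 CPM in TGFb1 (mean ± SD, n = 3 each).

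Ccne2, Cdc6 and Ccne1 were the lowest. Ccne2 had 16.8, 19.1 and 21.1 CPM in TGFb1 + IL1b, against 39.5, 37.4 and 34.7 in TGFb1, a log2 fold change of -0.97 ± 0.10 (SE; adjusted p = 2.50e-10). Ccne1 had 17.1, 16.7 and 17.5 CPM in TGFb1 + IL1b, against 27.2, 21.8 and 23.5 in TGFb1, a log2 fold change of -0.50 ± 0.11 (SE; adjusted p = 0.000204). The groups did not overlap in either gene. Cdc6 stood at -0.57 ± 0.14 and Ccnb1 at -0.46 ± 0.14, and Ccnb1 had 8.65, 8.28 and 8.34 CPM in TGFb1 + IL1b, against 12.3, 12.9 and 9.43 in TGFb1. The call of Ccnb1 was lost without TGFb1 replicate 2 and with TGFb1 + DMSO as the control. Gins1, a subunit of the active helicase, had the highest log2 difference, 0.30 ± 0.14 (SE; adjusted p = 0.0883), which did not pass. Mki67 at -0.10 ± 0.09, Mcm2 at 0.12 ± 0.05 and E2f1 at -0.03 ± 0.07 did not pass. Aurka stood at -0.04 ± 0.06 and rose by 0.18 against TGFb1 + DMSO.

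**Figure D5:**
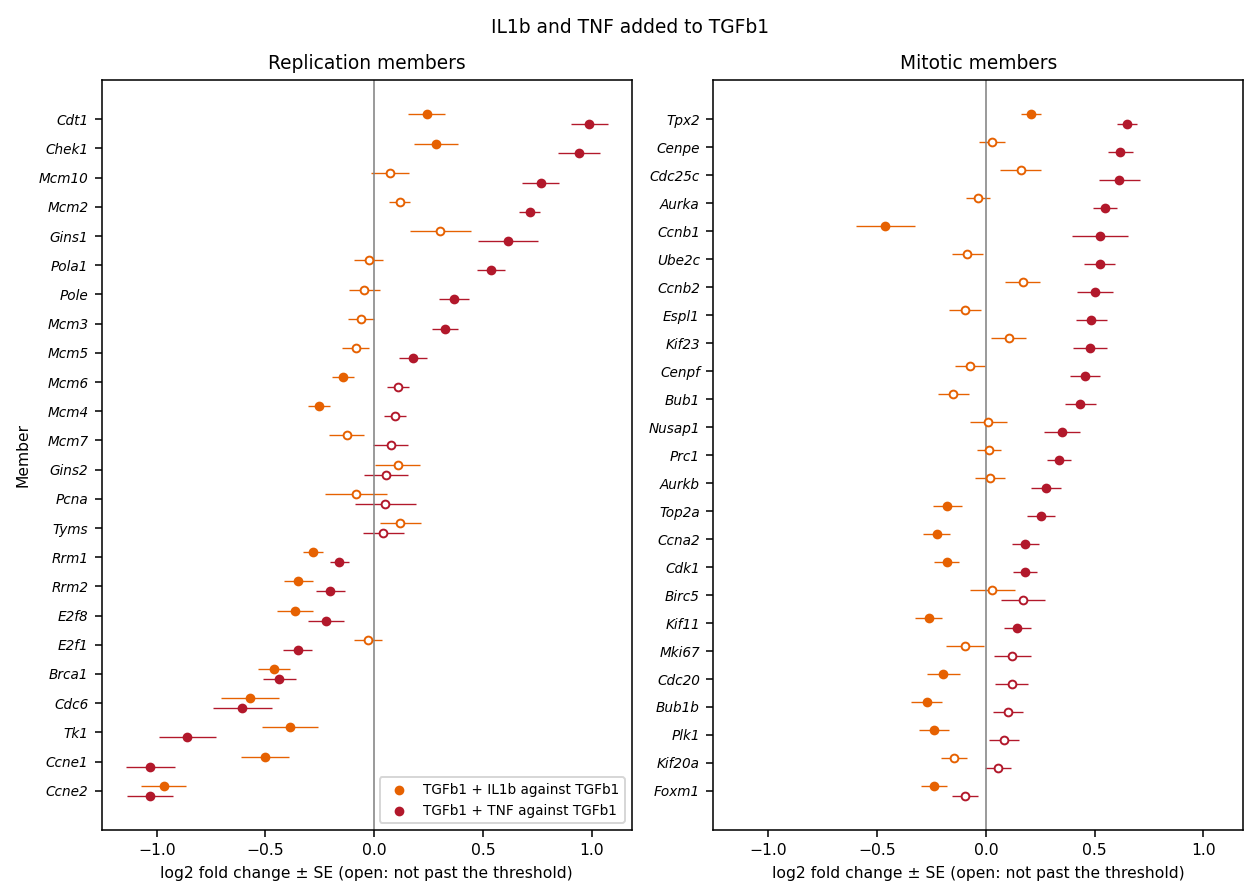
Log2 fold change ± SE of each replication gene (left) and mitotic gene (right) for TGFb1 + IL1b and TGFb1 + TNF, each against TGFb1, ordered by the TNF value; open points did not pass. Both comparisons share the TGFb1 libraries. Ccne1 and Ccne2 lie at the bottom of the left panel, and Cdt1 and Chek1 at the top.

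Both cytokine groups share their TGFb1 control, so they were also compared with each other. With TGFb1 + IL1b set against TGFb1 + TNF, 36 of 49 genes were lower and 3 higher, beside 22.8% and 24.7% of all genes tested, with medians of -0.33 over the 49 genes and 0.01 over all genes tested. Of the mitotic genes 24 of 25 were lower with IL1b, and Birc5 did not pass (-0.14 ± 0.10). Ccnb1 had 8.65, 8.28 and 8.34 CPM in TGFb1 + IL1b, against 15.9, 16.3 and 17.9 in TGFb1 + TNF, a log2 fold change of -0.99 ± 0.13 (SE; adjusted p = 1.26e-08). Cdt1 and Mcm10 followed at -0.75 ± 0.08 and -0.69 ± 0.08. The genes that were higher with IL1b were Ccne1 (0.53 ± 0.11), Tk1 (0.47 ± 0.13) and E2f1 (0.32 ± 0.07), while Ccne2 did not pass, at 0.06 ± 0.11.

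Between TGFb1 + DMSO and TGFb1 the differences in the list were small, and those that passed were all falls. With TGFb1 + DMSO set against TGFb1, 7 genes fell, none rose and 42 did not pass, beside 3.8% and 2.33% of all genes tested, and the median log2 fold change was -0.12, beside 0.00015 over all genes tested. The 7 were Mcm7 (-0.28 ± 0.08), Plk1 (-0.23 ± 0.07), Aurkb (-0.22 ± 0.07), Aurka (-0.22 ± 0.06), Cdk1 (-0.22 ± 0.06), Cenpe (-0.19 ± 0.06) and Tpx2 (-0.16 ± 0.05). The highest difference was that of Ccne1, 0.07 ± 0.11, and the lowest that of Tk1, -0.30 ± 0.13, neither of which passed. None fell when TGFb1 + DMSO replicate 2 or TGFb1 replicate 1 was left out, 3 fell with library totals alone as the scaling, and 3 fell without TGFb1 + DMSO replicate 1 or 3.

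Most other genes of the same pathways moved in the same directions with TGFb1 and with CHIR. Of 45 further mitotic genes 44 rose with TGFb1 + DMSO against DMSO, all 45 fell with CHIR against DMSO, and 32 rose and 2 fell with TGFb1 + TNF against TGFb1, with median log2 fold changes of 1.08, -2.38 and 0.34. The lowest in CHIR were Ska1, a kinetochore gene (-3.72 ± 0.28), and Pimreg (-3.38 ± 0.14). Of 34 further replication genes 31 rose with TGFb1 + DMSO, 32 fell with CHIR, and 13 rose and 6 fell with TGFb1 + TNF, with medians of 0.61, -1.19 and 0.05. Exo1, an exonuclease of repair, stood at -2.83 ± 0.18 with CHIR, and Dut, which keeps uracil out of DNA, at 1.02 ± 0.08 with TGFb1 + TNF. The background shares of all genes tested are those given for each comparison.

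The regulators upstream did not move as 1 group. Among 16 D cyclins, their kinases, CDK inhibitors and pocket proteins 6 rose and 8 fell with TGFb1 + DMSO against DMSO, 3 rose and 10 fell with CHIR, and 6 rose and 10 fell with TGFb1 + TNF against TGFb1. Cdkn1a, which encodes the inhibitor p21, rose by 1.73 ± 0.07 with TGFb1 + DMSO and by 1.14 ± 0.08 with CHIR. Cdkn1c, the inhibitor p57, stood at -5.06 ± 0.29 with TGFb1 + DMSO and -2.52 ± 0.46 with TGFb1 + TNF. Ccnd1, cyclin D1, stood at -2.10 ± 0.08 with CHIR and 0.88 ± 0.07 with TGFb1 + TNF. Of 16 further E2F and MuvB factors 9 fell with CHIR and 1 rose. The lowest was Mybl2, which encodes B-Myb, the factor that joins MuvB at mitotic promoters, at -4.21 ± 0.23, and its interaction, a log2 difference as above, was 3.46 ± 0.28.

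Set beside the promoter letters shown above, the 16 genes with CHR letters had a median log2 fold change of -2.76 for CHIR against DMSO, the 7 with E2F letters and no CHR -1.05, and the 15 with neither -2.41. For TGFb1 + DMSO against DMSO the medians were 1.08, 0.52 and 1.04, and for the interaction 1.82, 0.46 and 1.46. Genes with neither kind of letters lay nearer to the CHR genes in these 3. For TGFb1 + TNF against TGFb1 the medians were 0.29, 0.18 and 0.05, and the genes with neither lay nearer to those with E2F letters. Single genes lay far from the median of their class: Mcm5, with 2 overlapping E2F words, fell by 2.80 with CHIR, and Mcm2, with CHR letters, stood at -1.01. Rrm2 and Ccnb1, whose windows hold neither CHR nor E2F letters, were among the 3 lowest of the list. The classes were not tested against each other.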

How the data were processed

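Raw counts per gene, whole numbers for 52636 genes in 21 libraries, were made and deposited by the authors. The sources used here do not name the aligner, the counting tool or its strand setting, and the builds GRCh38 and GRCm38 are named without a role in the submitters' processing notes. Libraries were made with a stranded total RNA kit, per the labels' protocols. All 21 single-library tables equalled their column in the table of all libraries, and no 2 libraries held identical counts. Replicates were numbered in record order. Names, positions and exon lengths came from GENCODE M21 (GRCm38). The 147 gene IDs without a name there held 0.0074% of counts. Genes passing filterByExpr (16197) were fitted with edgeR 4.0.16 in R 4.3.3: TMM factors, 1 coefficient per group over all 21 libraries, robust quasi-likelihood F-tests, and Benjamini-Hochberg adjustment over all genes tested at 0.05. The common coefficient of variation between libraries was 0.0581. The interaction took the log2 change with CHIR under TGFb1 less the change without TGFb1. The alternatives were DESeq2 1.42.0, limma 3.58.1 voom, RLE factors, library totals, other filters, other groups in the fit, and each library left out. The fit was also run on simulated counts, in which far fewer genes were changed than were called here. That run does not test the scaling under changes as broad as these. Near-identical copies were found with BLAST 2.17.0 (at least 95% identity over at least 20% of the transcript).

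The 49 genes, the other lists and the rule for naming genes were chosen with earlier results of these data known. By that rule 12 genes have values in every library. The rule also covered the 3 highest and 3 lowest genes of each comparison, not all of which are named, and those not passing where fewer than 8 did not. Other lists name up to 2 genes per direction. Further genes of the 49 were named after their values were seen.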

Additional observations from a re-analysis of the deposited data

Results flagged for a closer look

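The CHIR effect on 42 of the 49 genes differed between cells with and without TGFb1, by edgeR's interaction test, and was less negative with TGFb1 in each. In 41 of them this was a smaller fall, and Cdt1, which fell without TGFb1, did not fall with it. As the effect with TGFb1 less that without it, on the log2 scale, the genes described library by library were Ccnb1 (2.68), Rrm2 (2.64), Plk1 (2.35), Mki67 (2.09), Top2a (1.64), Mcm5 (1.56), Cdk1 (1.47), Foxm1 (1.0), E2f1 (0.74) and Mcm2 (0.59). The reads of Ccnb1 may be shared with near-identical copies. With 3 libraries in a group, single libraries far from the others of their group were not tested for.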

How the results depend on the processing

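The genes that passed in each direction stayed within 1.5 times their number under the alternatives run, with these exceptions. For TGFb1 + IL1b against TGFb1, 3 genes rose; 6 rose with only the groups compared in the fit, 13 rose and 11 fell (19 as reported) with TGFb1 + DMSO as the control, and 1 to 4 rose with 1 library left out. With that control the median over the 49 genes turned to 0.014, and Aurka (0.18), Cdc20 (0.0021) and Cdk1 (0.042) turned positive, as did E2f8 (0.035) for TGFb1 + TNF. For TGFb1 + DMSO against TGFb1, 7 genes fell; 3 fell with library totals alone, and 0 to 7 with 1 library left out. With 1 library left out, 0 to 1 gene rose for TGFb1 + CHIR against TGFb1 + DMSO (0 as reported), and 7 to 12 fell for TGFb1 + CHIR against DMSO (11 as reported). With TGFb1 in place of TGFb1 + DMSO, 1 gene had a negative interaction. The causes of these shifts were not tested. Of 6909 values of single genes under alternatives, 6678 kept their direction and side of the threshold, 139 fell short of it, 88 newly passed it and 4 turned. A gene past the threshold in neither fit was taken as having no direction. Scaling to library totals alone moved the median of all genes in TGFb1 + CHIR against DMSO to -0.13, and changed the genes called among all tested to 2854 higher and 4556 lower for CHIR against DMSO (3578 and 3682 as reported). It also gave 668 higher and 463 lower for TGFb1 + DMSO against TGFb1 (378 and 615 as reported), and 225 and 238 were higher without TGFb1 replicate 1 and without TGFb1 + DMSO replicate 2. No paired analysis was possible because the labels give no replicate numbers, and those given here only name the libraries of a group. Low counts limit Ccnb1 in CHIR, and reads shared with copies limit Ccnb1, Cdc6, Mcm7 and Pcna.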

Other observations

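Replication-dependent histone genes, whose messages are made in S phase and mostly lack a poly(A) tail, did not follow the replication genes with TGFb1. The summed level of 70 genes of the histone clusters was 113 ± 18.1 CPM in TGFb1 + CHIR, 80.1 ± 5.11 in CHIR, 103 ± 8.75 in TGFb1 + IL1b, 72.8 ± 5.91 in TGFb1 + TNF, 91.0 ± 2.59 in TGFb1 + DMSO, 90.2 ± 6.47 in TGFb1 and 189 ± 14.4 in DMSO (mean ± SD, n = 3 each). Of the 14 that could be tested, 8 fell and none rose with TGFb1 + DMSO against DMSO, while 31.3% of all genes tested fell and 30.7% rose. With CHIR against DMSO 7 fell and none rose, while 22.7% of all genes tested fell and 22.1% rose. The lowest log2 fold changes were those of Hist1h4h (-3.68 ± 0.94) and Hist1h2ac (-2.17 ± 0.43) with TGFb1 + DMSO, and those of Hist1h2bh (-4.72 ± 1.12) and the linker histone Hist1h1d (-2.70 ± 0.51) with CHIR. These genes are near-identical to each other, so how their reads were assigned is uncertain, and the cause of the difference from the replication genes was not tested.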
